A study of Homo sapiens with 8 samples.

Results

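The comparison described here is that of TARBP2-depleted with control MDA-LM2 cells after 18 h in alpha-amanitin, made on 4 of the 8 arrays of the study. MDA-LM2 cells descend from MDA-MB-231, an established human breast cancer line, and were selected in mice for their ability to colonise the lung. The knock-down group holds 2 arrays, 1 for each of the independent siRNAs siTARBP2-1 and siTARBP2-2, and the control group holds 2 arrays, siControl-1 and siControl-2. The cells of both groups were transfected with Lipofectamine, left for 48 h and then kept for 18 h in 10 µM alpha-amanitin before total RNA was taken, so the drug is common to both groups. The other 4 arrays are the same groups at 0 h, without the drug. Cells of the 18 h arrays were thus also 18 h further from transfection. No array holds cells kept for 18 h without the drug. Between 0 h and 18 h, the drug and the added time cannot be told apart. The sample titles name a control siRNA, whereas the series text speaks of mock transfection, and an effect of any siRNA cannot be told apart from loss of TARBP2 if the control cells received none. Nothing in the labels says that the 2 control arrays came from separate cultures, and p-values thus reflect only how far replicate arrays lay apart, which may be technical.

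A probe is a short oligonucleotide on the Illumina BeadChip that reports 1 transcript or a set of related ones. A probe entered the comparison when both arrays of the knock-down group, or both of the control group, gave it a detection p-value under 0.01 at 18 h. Of 47321 probes, 16423 (34.7%) met this rule and 30898 did not. The 104 probes just inside the threshold, at a limiting detection p of 0.00909, had a median signal of 120.6 over the 4 arrays, and the 235 probes just outside, at 0.01039, had a median signal of 119.2. No table used here gives the gene behind a probe. The level of TARBP2 and of markers of the cell line was therefore not analysed here, and transcripts are described as groups of probes and by 4 probe identifiers.

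TARBP2 binds double-stranded RNA and works with Dicer in loading the RNA-induced silencing complex, in which small RNAs guide the repression of messenger RNAs. It has also been described in metastatic breast cancer cells as a factor that binds structured elements in transcripts and lowers their stability. Alpha-amanitin, a mushroom toxin, blocks RNA polymerase II, so that transcripts made by that enzyme are no longer replaced and decay at their own rates. A transcript's level at 18 h thus carries both its level before the block and what was lost or retained afterwards, and the comparison at 18 h alone does not separate these.

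After 18 h, knock-down and control cells differed at almost 1 in 3 of these probes, in similar numbers in each direction and mostly by less than 1.5-fold. Of 16423 probes, 2648 (16.1%) were higher and 2350 (14.3%) lower in knock-down cells, or 30.4% called in all, by limma's test with Benjamini-Hochberg adjusted p under 0.05. Before the drug, the same test on the 0 h arrays called 851 of 16893 probes (5.04%), 427 higher (2.53%) and 424 lower (2.51%). The 0 h count moved widely with the processing: it was 1869 without background correction, 2065 with the authors' normalized values, 2272 with an intensity trend in the prior, 12 with replicate number as a block, and 1 to 4 with any 1 array left out. Scaled by the array median, the 0 h calls were 310 higher of 824, or 37.6% against 50.2%. The higher calls at 18 h had a median log2 difference of 0.45, or 1.36-fold, with quartiles of 0.35 and 0.58. The lower calls had a median of -0.44, or 0.738-fold, with quartiles of -0.57 and -0.35. No call was smaller than 0.24 in log2 units, and the median standard error of a called difference was 0.080. The 11425 probes that were not called had a median of 0.0061.

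Large differences were few. Of the calls, 658 higher and 560 lower ones passed 1.5-fold, together 7.42% of the probes, and 53 higher and 65 lower ones passed 2-fold, together 0.719%. Past 4-fold there were 0 higher and 3 lower probes. Some of these calls are of probes kept through 1 group alone, whose direction the detection rule fixes. Tested over only the 14833 probes detected on all 4 arrays, 21 higher and 46 lower calls passed 2-fold. At 0 h, 265 calls (1.57% of the probes) passed 1.5-fold and 18 (0.107%) passed 2-fold. In 11568 probes (70.4%) the 2 groups of arrays did not overlap at 18 h, against 57.2% at 0 h, and these include all 4998 calls at 18 h. The smaller set in which every knock-down array lay past every control array by more than 1.5-fold held 309 higher and 295 lower probes, 3.68% of the total, and past 2-fold it held 22 and 32. Of these, 206 and 250 past 1.5-fold, and 14 and 24 past 2-fold, were detected on all 4 arrays.

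**Figure D1:**
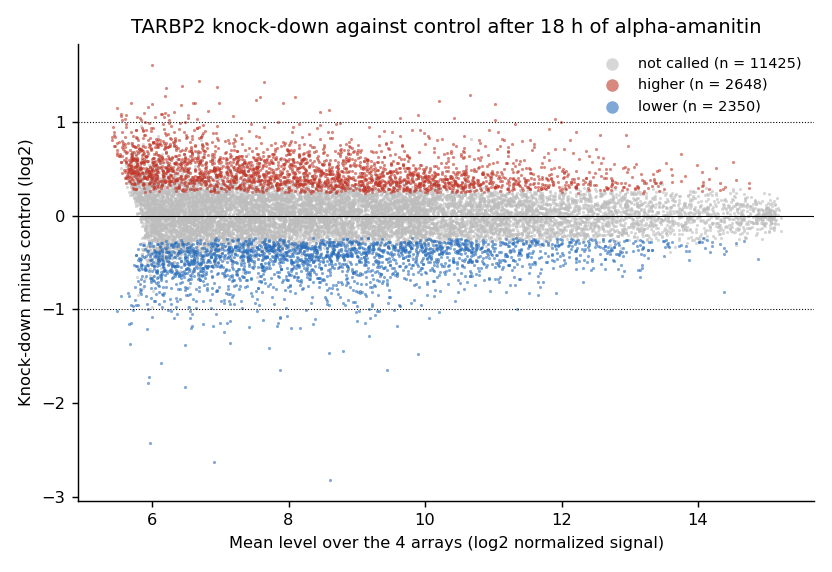
Each point is 1 of 16423 probes, with its mean level over the 4 arrays at 18 h on the x axis (log2 normalized signal) and the knock-down minus control difference on the y axis (log2), coloured by call, with dotted lines at 2-fold. Higher and lower calls, 2648 and 2350, lie at all levels, and 118 of them lie beyond the dotted lines.

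The calls rested on both knock-down arrays. With either of them left out, 0 probes were called, with a lowest limma adjusted p of 0.063 without siTARBP2-1 and 0.057 without siTARBP2-2. In those fits 5175 and 5129 probes had an unadjusted p under 0.05, and the spread came from the control pair alone, with the lone knock-down array assumed to vary like it. With a control array left out, the count was 4243 without siControl-1 and 3788 without siControl-2.

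The raw signals of the groups differed in a part of their range. The upper quartile of the non-normalized signal over all probes was 220.8 ± 1.13 (SD, n = 2) in knock-down cells at 18 h and 178.75 ± 6.72 (SD, n = 2) in control cells, a ratio of 1.24. The ratio was 1.23 at the 90th percentile and 1.16 at the 95th, but 1.05 at the median and 0.996 at the 99th percentile. At 0 h the same ratios lay between 0.956 and 0.996. Knock-down cells also had more detected probes at 18 h, 16617 and 16920 on their arrays, against 16220 and 15541 on the control arrays. The median signals over all probes, 93.8 and 89.6, lay below the 120.6 of probes just inside the detection threshold, so the median compares undetected probes. Above it, knock-down arrays were brighter from the upper quartile to the 95th percentile, and the groups were close at the 99th. The cause of this difference in brightness was not tested, and such arrays cannot tell fewer cells from less RNA per cell.

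Quantile normalization removes this difference between arrays, so each direction given here is relative to the other transcripts on the array. With the arrays scaled by their median instead, the median difference over the probes kept moved by 0.20 in log2 units. Then 8059 probes were called, 6942 higher and 1117 lower, which is 86.1% higher against 53.0%. That array median is taken over all 47321 probes, of which 15541 to 16920 were detected on each 18 h array. Median scaling thus aligns the arrays at the level of undetected probes, not at a typical detected transcript. Of the 2648 higher calls, 2630 remained called higher under median scaling. Of the 2350 lower calls, 964 remained called lower, and 0 became called higher. A stricter set was called in the same direction under all 5 treatments of the signals, namely quantile normalization with and without background correction, cyclic loess, median scaling and the authors' normalized values. It held 2472 probes higher and 960 lower in knock-down cells, including all 53 and 65 calls over 2-fold. These counts, and those that remained under median scaling, include probes kept through either group alone, whose direction the detection rule fixes. Tested over only the 14833 probes detected on every array, 21 higher and 46 lower calls passed 2-fold.

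The authors' own normalized values gave much the same account of these arrays. Their log2 differences correlated with those computed from the signals at r = 0.997 across probes, which are not independent replicates, and 4965 of the 4998 calls (99.3%) were called in the same direction, with 0 of opposite sign. Their differences were smaller in size, with 0.81 times the SD. The median size of a called difference was 0.36 in log2 units with the authors' values and 0.44 with the background-corrected signals.

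The largest increases and decreases are described by 4 probes, the 2 farthest in each direction among called probes detected on all 4 arrays. ILMN_1746396 gave non-normalized signals of 450.4 and 420.6 on the knock-down arrays at 18 h, and 162.0 and 168.4 on the control arrays. After normalization its log2 level was 8.35 ± 0.069 in knock-down and 6.93 ± 0.015 in control cells (SD, n = 2), a difference of 1.42 ± 0.075 (log2, SE), or 2.68-fold (limma adjusted p = 0.00571). Both knock-down arrays were high and the groups did not overlap. Before the drug this probe was lower in knock-down cells, with signals of 375.2 and 350.3 against 621.7 and 697.5, a log2 difference of -0.90 (limma adjusted p = 0.0242). Its order was thus turned between 0 h and 18 h.

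ILMN_2401352 gave signals of 293.8 and 289.6 on the knock-down arrays at 18 h, and 119.3 and 139.3 on the control arrays. Its log2 level was 7.64 ± 0.0050 against 6.27 ± 0.22 (SD, n = 2), a difference of 1.37 ± 0.12 (log2, SE), or 2.58-fold (limma adjusted p = 0.00586). Here the control arrays stood farther apart than the knock-down arrays, without reaching them. At 0 h its signals were 219.2 and 214.9 in knock-down and 220.2 and 232.6 in control cells, a log2 difference of 0.0031 (limma adjusted p = 0.986).

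ILMN_2184373 had the largest decrease of all probes. Its signals were 221.1 and 242.2 on the knock-down arrays at 18 h, and 907.5 and 1073 on the control arrays. The log2 level was 7.20 ± 0.14 against 10.02 ± 0.11 (SD, n = 2), a difference of -2.82 ± 0.10 (log2, SE), or 0.141-fold (limma adjusted p = 0.00263). The probe was already low before the drug, with signals of 694 and 761.9 in knock-down and 2370.1 and 2218.5 in control cells, a log2 difference of -1.67 (limma adjusted p = 0.00526). Both groups fell over the 18 h and the distance between them widened.

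ILMN_1726448 gave signals of 521.1 and 485.6 on the knock-down arrays at 18 h, and 1103.5 and 1220.9 on the control arrays. Its log2 level was 8.61 ± 0.065 against 10.26 ± 0.046 (SD, n = 2), a difference of -1.65 ± 0.076 (log2, SE), or 0.318-fold (limma adjusted p = 0.00543). At 0 h the signals were 497 and 542.7 against 963.8 and 973.6, a log2 difference of -0.91 (limma adjusted p = 0.0164). Knock-down arrays were low at both times, and in non-normalized signal the control arrays lay slightly higher at 18 h than at 0 h. Each of the 4 probes lost its call without either knock-down array, at adjusted p-values from 0.057 to 0.065.

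**Figure D2:**
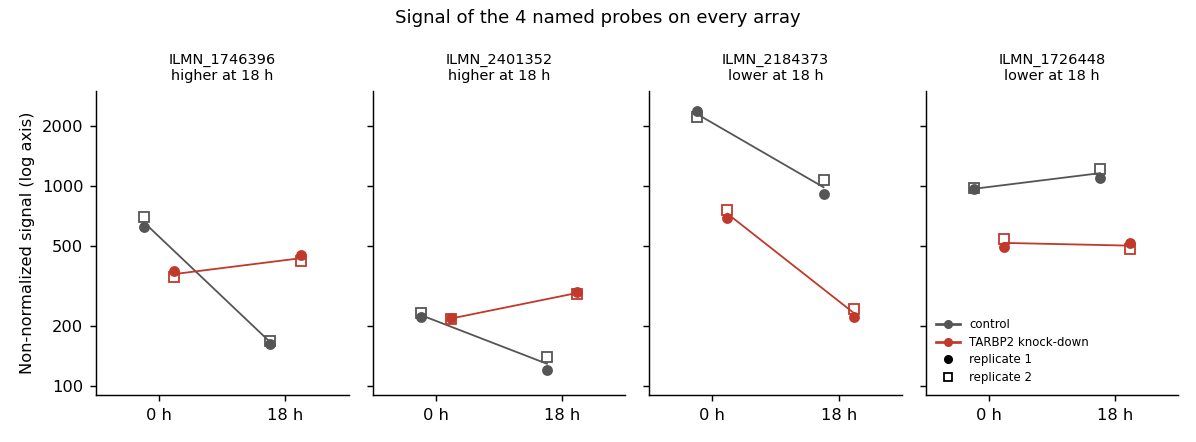
Non-normalized signals (log axis) of the 4 named probes on all 8 arrays, at 0 h and 18 h, for control (grey) and knock-down (red) cells, with filled circles for replicate 1, open squares for replicate 2 and lines joining the geometric means. ILMN_1746396 is lower in knock-down cells at 0 h and higher at 18 h, ILMN_2401352 starts level, and the other two are low in knock-down cells at both times.

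The probe with the largest decrease at 0 h among called probes was also dimmer in knock-down cells at 18 h. It was detected on both control arrays and on neither knock-down array at either time. Its signals at 0 h were 112.2 and 109.1 in knock-down and 395 and 416 in control cells, which makes it at least 5.42-fold lower. At 18 h they were 76.3 and 75.9 against 186.8 and 183.3, or at least 2.65-fold lower. The probe was kept at both times through the control arrays alone, which fixes its direction, so its tests are not read. These folds are bounds because the knock-down arrays were not above background. For each such array the bound uses the lowest normalized value among its detected probes, or the probe's own value where that was greater.

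Some probes were detected in only 1 group. Of the 16423, 14833 (90.3%) were detected on all 4 arrays, and among these the calls were even, 2142 higher and 2198 lower. A further 714 were detected on both knock-down arrays and 1 control array, and 182 on both control arrays and 1 knock-down array. On both knock-down arrays and on no control array there were 600, and 94 showed the reverse. The choice of these last probes fixes their direction, so their calls, 380 of 600 and 84 of 94, are not read further. Taken as bounds, 23 of the 380 were at least 1.5-fold higher in knock-down cells, and 20 of the 84 at least 1.5-fold lower. The highest bounds were at least 2.26-fold higher and at least 5.47-fold lower.

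The 2 siRNAs gave similar differences at 18 h. With siTARBP2-1 set against siControl-1 and siTARBP2-2 against siControl-2, so that no array is used more than once, the differences of the siRNAs had r = 0.751 over probes (Spearman 0.741, n = 16423 probes), and 78.8% of probes had the same sign. With the controls exchanged the correlation was 0.761. At 0 h it was 0.574 over 16893 probes, with 69.4% of the same sign. These correlations are over probes that share arrays and normalization, and they are descriptions only.

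The overlap of the siRNAs was partial at larger folds. Over 1.5-fold, siTARBP2-1 had 808 probes higher and siTARBP2-2 had 881, of which 399 were shared, 49.4% and 45.3% of each list. Of the probes lower by as much, 360 were shared, 52.6% of 684 and 48.1% of 748. Opposite signs were rare among these, with 43 of the 808 and 49 of the 881 higher probes having the other sign with the other siRNA. In the higher calls the median log2 difference was 0.44 with siTARBP2-1 and 0.45 with siTARBP2-2, and in the lower calls it was -0.44 with either. The calls were made on these same arrays, so the likeness of the medians is a description. The shared counts and the calls also include probes kept through 1 group alone, whose direction the detection rule fixes.

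**Figure D3:**
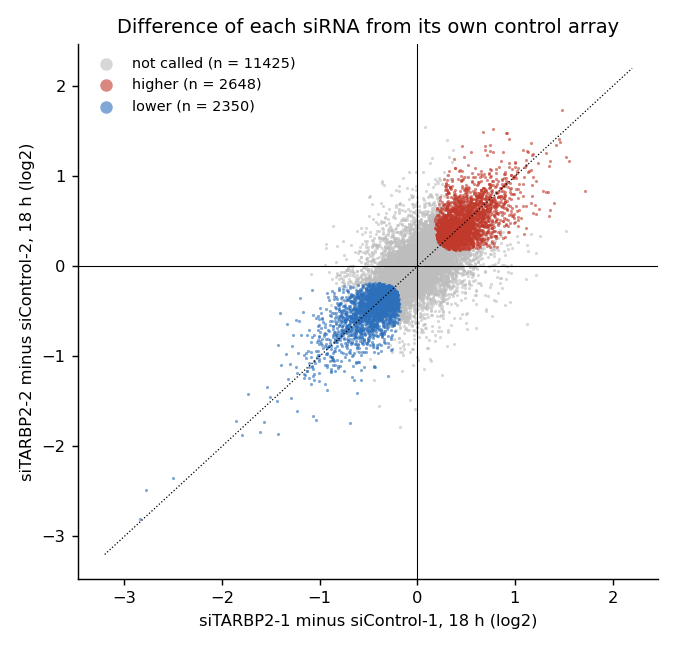
Each point is 1 probe at 18 h, with the siTARBP2-1 minus siControl-1 difference on the x axis and the siTARBP2-2 minus siControl-2 difference on the y axis (both log2), coloured by the call of the 4-array test, and a dotted line of equality. Called probes lie along the line in the upper right and lower left, with r = 0.751 over all 16423 probes, including those kept through 1 group alone.

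Over the probes kept at 18 h, the differences at that time were wider than those before the drug and only partly the same. The drug and the longer time since transfection cannot be told apart here. With all 8 arrays normalized together, the log2 differences between knock-down and control had an SD over probes of 0.346 at 18 h and 0.209 at 0 h. No array is common to both times, and over probes the 2 sets of differences had r = 0.206 (Spearman 0.171). Probes called higher at 18 h had a median of 0.45 at that time and 0.041 at 0 h. Probes called lower had medians of -0.44 and -0.066. These probes were chosen by their differences at 18 h, which by itself favours smaller differences at 0 h. The reverse choice also gave smaller differences at the other time. Probes called higher at 0 h had a median of 0.50 at 0 h and 0.22 at 18 h, and those called lower -0.51 and -0.26. At 0 h, 58.8% of the higher and 64.0% of the lower calls already had the same sign.

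Both times called 132 probes higher, 4.98% of the 18 h list and 30.9% of the 0 h list, and 160 lower, 6.81% and 37.7%. Of all probes tested at 18 h, 16.1% were called higher and 14.3% lower. The 0 h lists of 427 and 424 include probes not tested at 18 h, with 354 and 345 kept. The shares called at both times rest on the 0 h list, whose length depends on the processing. With the authors' normalized values 296 probes were called higher at both times, 10.4% of the 18 h list and 28.0% of the 0 h list, and 343 lower, 13.5% and 34.0%. With replicate number as a block, 1 higher and 7 lower probes were called at both times, from 0 h lists of 3 and 9. Of the 18 probes that passed 2-fold at 0 h, 14 were kept at 18 h, and of these 11 were called in the same direction and 2 in the opposite one. In the test of the difference between the times, 2649 of 16423 probes were called (16.1%), 1409 (8.58%) with a higher and 1240 (7.55%) with a lower effect at 18 h than at 0 h. Under median scaling 5661 were called, 91.3% of them higher against 53.2%. With replicate number as a block the count was 1379, and it was 917 to 1226 without 1 of the knock-down or 0 h arrays (989 without siTARBP2-1 and 917 without siTARBP2-2 at 18 h, 1226 and 993 without the same siRNAs at 0 h, and 971 and 983 without siControl-1 and siControl-2 at 0 h). Of the higher calls at 18 h, 1126 (42.5%) had a called difference in the same direction, and of the lower calls 891 (37.9%). Because the 18 h arrays enter both tests, these shares are not independent of the calls at 18 h.

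A small group was called in opposite directions at the 2 times. It held 52 probes, and 38 of them were detected on all 8 arrays. Of the 38, 22 were lower at 0 h and higher at 18 h and 16 the reverse. Over 1.5-fold at both times, 7 turned from lower to higher, ILMN_1746396 among them, and 1 from higher to lower. In the 38 probes the log2 difference at 18 h ran from -0.68 to 1.42. The group depends on the 0 h list in the same way as the shares above.

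**Figure D4:**
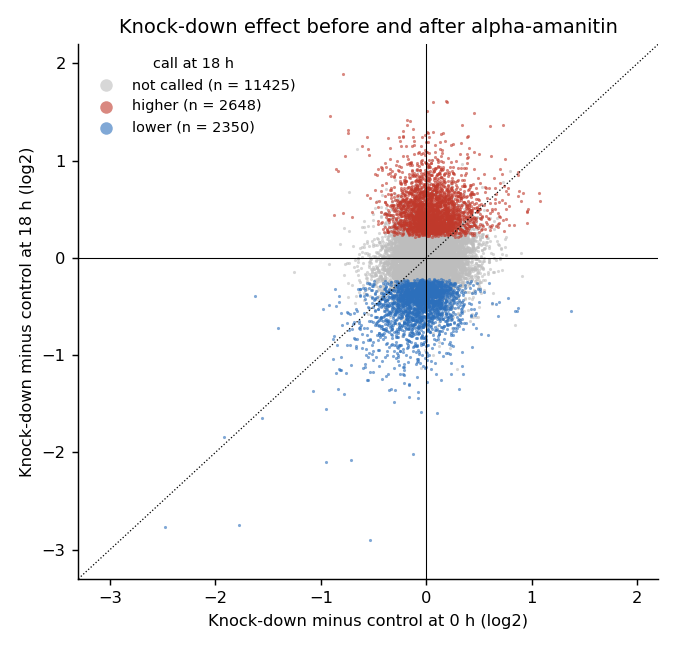
Each point is 1 of 16423 probes, with the knock-down minus control difference at 0 h on the x axis and at 18 h on the y axis (both log2, 8 arrays normalized together), coloured by the call at 18 h, and a dotted line of equality. The cloud is taller than wide, with an SD of 0.346 at 18 h and 0.209 at 0 h, and most called probes lie near 0 on the x axis. The probes were both kept and called by their values at 18 h, which favours a larger difference at that time.

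Probes were also grouped by how their relative level changed over the 18 h, taken as the mean change of both arms, which weighs both groups equally. The groups are described over the 14833 probes detected on all 4 arrays, since probes kept through 1 group alone have a direction that the detection rule fixes, and such probes are dim. Of these, 332 fell over 4-fold, 1499 fell 2- to 4-fold, 4266 fell and 6427 rose by less, 2057 rose 2- to 4-fold and 252 rose over 4-fold. With synthesis blocked, a relative fall reads as faster loss than that of other transcripts, and a relative rise as slower loss or continued synthesis. The share of probes called was 31.0% in the probes falling over 4-fold, 34.2% in those falling 2- to 4-fold, 28.0% and 26.9% in the middle groups, and 34.7% and 36.9% in the groups that rose, against 29.3% of the 14833. These shares were not tested against each other.

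With all signal levels pooled, the calls of these 6 groups leaned furthest from even in the probes rising 2- to 4-fold. That difference was not tested. In the group falling over 4-fold, 59 were higher and 44 lower in knock-down cells (57.3% higher), and in that falling 2- to 4-fold 282 were higher and 230 lower (55.1%). In the middle groups 46.2% and 44.2% of calls were higher. Of the calls in probes rising 2- to 4-fold, 438 were higher and 275 lower (61.4%), and for those rising over 4-fold there were 49 and 44. Over all 14833 probes 49.4% of calls were higher. The median log2 difference was 0.020 in the probes falling over 4-fold (quartiles -0.17 and 0.24), 0.059 in those rising 2- to 4-fold (quartiles -0.16 and 0.26) and -0.0040 over all, so the groups overlapped widely.

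In the probes rising 2- to 4-fold the median difference was 0.054 with siTARBP2-1 and 0.060 with siTARBP2-2, each against the control of the same number, and in those falling over 4-fold it was 0.040 and 0.013. At 0 h the medians of these groups were 0.014 and 0.012. The probes rising over 4-fold had a median at 18 h close to that of the group rising 2- to 4-fold, 0.058. It was 0.088 with siTARBP2-1 and 0.029 with siTARBP2-2, and the 0 h median of that group was 0.050. Under cyclic loess the median at 18 h was 0.051 in the group rising 2- to 4-fold. Under median scaling all groups had medians above 0, with 0.29 in the group rising 2- to 4-fold, 0.30 in that falling over 4-fold, and 0.19 and 0.15 in the middle groups. Signal level differed between the groups: probes that fell over 4-fold had a median log2 level of 7.47 at 18 h, against 8.67 in those rising 2- to 4-fold and 8.99 and 9.13 in the middle groups. Among the probes rising 2- to 4-fold, 56.6% of the calls were higher below the median level of the 14833 and 66.8% above it. The part of signal level in these shares was not tested further.

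**Figure D5:**
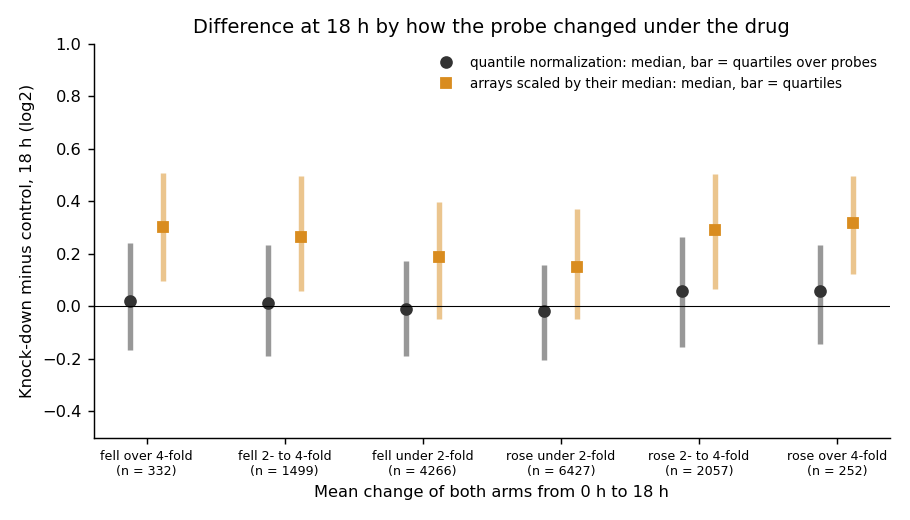
Knock-down minus control difference at 18 h (log2) for 6 groups of probes, all detected on the 4 arrays at 18 h, ordered by the mean change of both arms from 0 h to 18 h. Grey circles and bars are the median and quartiles over probes with quantile normalization and orange squares and bars those with arrays scaled by their median. Grey medians run from -0.019 to 0.059, and orange ones from 0.15 to 0.32, and both are lowest for probes that rose less than 2-fold.

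Across signal levels the calls stayed near even. The 14833 probes detected on all 4 arrays were split into 4 groups of equal size by their mean level at 18 h. In the lowest of these, from 5.92 to 7.36 in log2 units, 472 probes were called higher and 545 lower, or 46.4% higher. The other groups, in rising order, had 50.8%, 50.8% and 48.7% higher calls. The share of probes called was 27.4%, 33.9%, 32.8% and 23.0%, from the lowest group to the highest. The spread between replicate arrays fell from a median SD of 0.12 in the lowest group to 0.055 in the highest, and the median size of the difference fell from 0.22 to 0.14. Under median scaling the median difference was 0.25, 0.30 and 0.24 in the 3 lower groups and 0.021 in the highest. The shift between the groups of arrays under that scaling was thus seen in the 3 lower groups and was small in the highest. Its cause was not tested.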

How the data were processed

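The authors deposited non-normalized probe signals (intensity, linear scale) and a detection p-value beside each signal, per the file headers. The series matrix, also deposited, holds intensity values whose 8 columns have nearly the same distribution, with medians from 85.5 to 85.6. In every column the values rank as the array's signals do (rank correlation 1), which settles the direction. Over detected probes the slope of the log2 deposited values on the log2 signals lay between 0.944 and 1.02, as for values on a linear scale. How it was normalized is not stated in these sources; the submitters' processing notes name lumi. A further deposited table of stability ratios carries no probe identifiers and was not used here.

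Signals of the 4 arrays at 18 h were background-corrected with neqc (limma 3.58.1, R 4.3.3), with an offset of 16 and quantile normalization, negative controls being inferred from the detection p-values, and log2 values were fitted with lmFit and eBayes (2 residual and 3.47 prior degrees of freedom, 2-sided tests). The 0 h arrays were treated alike, and the difference between the times was fitted on all 8 arrays. A probe was called at an adjusted p (Benjamini-Hochberg, over all probes kept) under 0.05. The number of arrays limits the precision. The fit was tested on simulated data. Replicate arrays differed at over 99% of probes in signal, and each was counted as 1 sample.

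The comparison, the groups of probes and the tests were chosen with earlier results of these data known. The named probes are the 2 largest increases and 2 largest decreases among called probes detected on all 4 arrays whose groups do not overlap; the probe lowest at 0 h and the groups by 18 h change and by level, with their limit to probes detected on all 4 arrays, were added after values had been seen.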

Additional observations from a re-analysis of the deposited data

Results flagged for a closer look

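The knock-down effect differed between 18 h and 0 h by limma's test on all 8 arrays for 2649 probes, and for each of the 4 named ones. For ILMN_1746396 the log2 difference of the effects was 2.37 ± 0.13 (SE; limma adjusted p = 0.00154), with 2 of 2 knock-down arrays below both control arrays at 0 h and above them at 18 h. For ILMN_2401352 it was 1.51 ± 0.16 (limma adjusted p = 0.00606). The decreases were larger at 18 h than at 0 h, by -0.965 ± 0.14 for ILMN_2184373 (limma adjusted p = 0.00915) and by -0.599 ± 0.093 for ILMN_1726448 (limma adjusted p = 0.0105). These probes were picked for their differences at 18 h, so the sizes at that time may be overstated.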

How the results depend on the processing

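The count of 4998 probes called at 18 h was 8059 with arrays scaled by their median and 840 with no filter on dim probes, when 47321 were tested. It ran from 0 to 4243 when each array was left out, with the 2 values of 0 coming from the knock-down arrays. It stayed within 1.5 times under cyclic loess, no background correction, the authors' values, detection on every array, an intensity trend in the prior (6468) and all 8 arrays in the fit (5668). The difference between the times, 2649 probes, gave 5661 with median scaling (91.3% of them higher against 53.2%), 384 with no filter, and 917 to 2140 without 1 array. The count at 0 h, 851, was 2065 with the authors' values, 1869 with no background correction, 2272 with an intensity trend and 1 with no filter; it was 1 to 4 without 1 array, when 3120 to 3596 probes had an unadjusted p under 0.05. With replicate number as a block the counts were 3862 at 18 h, 1379 for the difference between the times and 12 at 0 h. Nothing in the labels says whether the numbers pair the samples. Deviations of same-numbered arrays correlated at -0.025 at 18 h and 0.017 at 0 h. In the knock-down group the number is also the siRNA, so these correlations cannot decide whether arrays were paired. The causes of these moves were not tested, apart from the number of probes or arrays each setting takes in. The 4 named probes kept their direction under the alternatives that use all arrays, and their call in 44 of all 52 cases; the other 8 are the fits without a knock-down array. Counts for gene lists were not run, because probes carry no gene names here. Differences in probes at or below background cannot be measured and are bounds.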
